A study of Mus musculus with 22 samples.

Results

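Sorted mouse tumour cells of the Klf5KO line were compared with those of the Control line 8 days into the experiment, in both EPCAM fractions. The 8 libraries compared were chosen by their labels from the 22 libraries of the series: Klf5KO EPCAM+ (2 libraries), Klf5KO EPCAM- (2), Control EPCAM+ (2) and Control EPCAM- (2), which gives 4 Klf5KO against 4 Control libraries with the fraction kept apart in the fit. All were bulk RNA-seq libraries of cell lines from a primary tumour with alleles that include Lgr5CreER, p53fl/fl and Rosa26-YFP+/+. Control and Klf5KO cells therefore share those alleles. In them an inducible Cre is under the control of Lgr5, and YFP marks the cells in which Cre has acted. By the labels the lines differ in the CRISPR/Cas9 targeting of Klf5. Living single mCherry+ YFP+ cells were sorted by the surface level of EPCAM, an epithelial adhesion molecule whose loss marks cells that leave the epithelial state. The labels do not say what begins at day 0, how many edited clones a line holds, what the Control line received, or whether the 2 libraries of a group are separate cultures, so the p-values measure only the spread between these libraries, which may be technical. A further 12 day 8 libraries of lines targeted at Pitx1, Nfatc1 or Creb3l1 served as a second comparison.

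KLF5 is a zinc-finger transcription factor of the Krüppel-like family, whose members bind GC-rich and CACCC-type sequences in promoters and enhancers. It is expressed in the proliferating layers of epithelia, including the skin and the gut, and has been described as an activator of cell cycle and epithelial genes. The family members share a DNA-binding domain and can occupy the same sites, so related factors were read beside it.

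The values were read counts that the authors had scaled to a common total, here called scaled reads, and 1 sequenced read stood for 2.24 to 2.97 scaled reads in the 8 libraries. These held 6738231 to 8924830 reads in genes and detected 21109 to 22455 genes. Genes with a mean of at least 50 scaled reads that stood at least 2-fold apart between replicates made up 6.14% in Klf5KO EPCAM+ and 5.99% in Klf5KO EPCAM- cells, against 7.52% in Control EPCAM+ and 7.22% in Control EPCAM- cells. Epcam mRNA followed the sort, at 3702 and 5408 scaled reads in Klf5KO EPCAM+ and 90 and 336 in Klf5KO EPCAM- libraries, against 6153 and 5633 in Control EPCAM+ and 180 and 441 in Control EPCAM- libraries. Summed markers of fibroblasts spanned 270 to 2626 scaled reads in Klf5KO and 294 to 1810 in Control libraries with Fap at 0 throughout, and those of leukocytes spanned 138 to 293 and 192 to 220 with Cd3e, Cd3g and Tyrobp at 0. Endothelial and mural markers summed to 302 to 441 in Klf5KO and 173 to 822 in Control libraries with Tie1 at 0, and melanocyte markers to 87 to 142 and 102 to 613 with Dct, Tyr and Tyrp1 at 0. In all 4 lists the ranges of the Klf5KO and Control lines overlapped.

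The level of Klf5 mRNA itself did not separate the lines. Klf5 (ENSMUSG00000005148, chr14:99298691-99315036 of GRCm38, plus strand) had 2247 and 1961 scaled reads in Klf5KO EPCAM+ libraries (replicate 1, then 2, as in every pair below) and 2008 and 2182 in Klf5KO EPCAM- libraries, against 2585 and 1733 in Control EPCAM+ and 2941 and 1803 in Control EPCAM- libraries. Every Klf5KO value lay inside the Control range. The log2 fold change over both fractions was -0.07 (SE 0.22, 95% interval -0.55 to 0.40, limma adjusted p 0.985). A count over the whole gene does not show whether the coding sequence is intact, so the mRNA level is no check of the edit, and the libraries are called by their label, Klf5KO. The plot of Klf5, Epcam, Wnt7a and Hoxb9 by library sets these levels beside those of the called genes Wnt7a and Hoxb9.

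**Figure D1:**
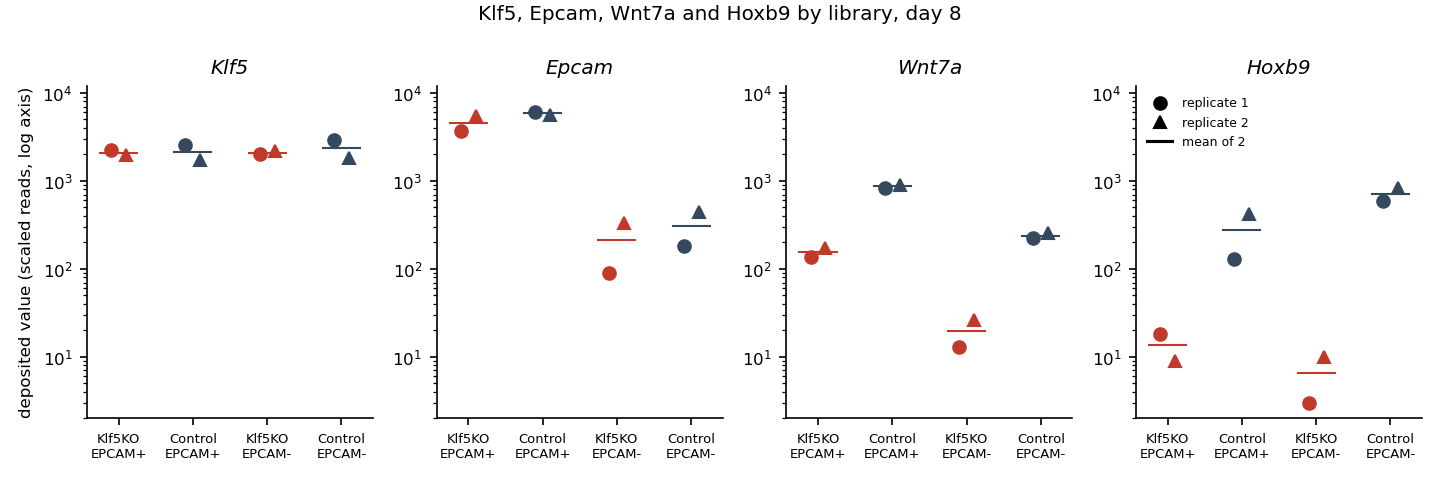
Deposited values (scaled reads, log axis) of Klf5, Epcam, Wnt7a and Hoxb9 in the 8 day 8 libraries, with Klf5KO in red and Control in dark blue, circles for replicate 1, triangles for replicate 2 and a line at the mean of 2. Klf5 lies between 1733 and 2941 in all groups, Wnt7a is lower in Klf5KO within each fraction, and Hoxb9 is at 18 or less in every Klf5KO library and at 131 or more in every Control library.

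The other Krüppel-like and SP factors did not pass the test either. Of 26 members of the KLF and SP family, 21 were high enough to be tested (10 or more scaled reads in 2 or more of the 22 libraries), 0 were called by limma or by limma-voom, and 1 had an unadjusted p below 0.05. That gene was Klf6, an early-response member, at 12568 and 10177 scaled reads in Klf5KO EPCAM+ and 11239 and 9056 in Klf5KO EPCAM- libraries, against 10629 and 8838 in Control EPCAM+ and 7737 and 6588 in Control EPCAM- libraries (log2 0.36, SE 0.15, limma adjusted p 0.634). Within each fraction and replicate number Klf6 was higher in Klf5KO, but the ranges overlapped. Klf4, an epithelial differentiation factor, varied with the replicate number more than with the line, at 1321 and 621 scaled reads in Klf5KO EPCAM+ and 1422 and 557 in Klf5KO EPCAM- libraries, against 2425 and 585 in Control EPCAM+ and 1673 and 445 in Control EPCAM- libraries. Klf4 had a log2 fold change of -0.18 (SE 0.70). The median log2 fold change of the 21 was -0.10, beside -0.03 over all 19569 genes tested. Klf8, Klf14, Klf15, Klf17 and Sp5 were at 0 in all 8 libraries.

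Genes that have been reported as KLF5 targets in other cells, a list written from general knowledge, showed no call. Of 19 tested, 0 were called by limma or limma-voom, 2 had an unadjusted p below 0.05, and the median log2 fold change was -0.01. Ccnd1, which encodes cyclin D1, had 14411 and 15438 scaled reads in Klf5KO EPCAM+ and 13509 and 13559 in Klf5KO EPCAM- libraries, against 15554 and 14728 in Control EPCAM+ and 14303 and 13079 in Control EPCAM- libraries. Ccnd1 had a log2 fold change of -0.02 (SE 0.13). Myc was as close, with a log2 fold change of -0.01 (SE 0.18). Fgfbp1, a secreted carrier of fibroblast growth factors, had the most negative value of the list at -3.32 (SE 0.99, limma adjusted p 0.361), with 12, 9, 0 and 0 scaled reads in the 4 Klf5KO libraries, against 585 and 41 in Control EPCAM+ and 12 and 3 in Control EPCAM- libraries. Pdgfa and Ilk were higher in all 4 Klf5KO libraries than in all 4 Control libraries, as were 3.67% of all genes tested. Their log2 fold changes of 0.71 and 0.28 did not pass the test (limma adjusted p 0.825 and 0.774).

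Across both fractions, 42 of 19569 genes were called by limma at an adjusted p below 0.05, 0.215% of the genes tested. Of these, 38 fell (0.194%) and 4 rose (0.0204%) in Klf5KO, and 1332 genes had an unadjusted p below 0.05, of which 740 were higher and 592 lower. The replicate number is tagged as a batch in the labels, and with that number as a block 104 genes were called (0.531%), 82 lower (0.419%) and 22 higher (0.112%), among them all of the 42. For 35 of the falls the 4 Klf5KO libraries lay below the 4 Control libraries, and the 4 rises lay above, whereas Sh3tc1, Plekhh2 and Proser2 overlapped. As background, 3.63% of all genes tested were apart in the first way and 3.67% in the second. In fits that left out 1 library 28 to 67 genes were called, 67 without Control EPCAM- replicate 2, and 25 of the 42 calls were kept each time. In fits that left out both fractions of a line and replicate number, which were correlated, 16 (without Klf5KO 1), 24 (Klf5KO 2), 12 (Control 1) and 243 (Control 2) genes were called. The 243 calls without Control 2 held no excess of falls, with 119 lower and 124 higher in Klf5KO. Of the 42 calls, 7 were kept in all 4 fits: Hoxb9, Wnt7a, Xpnpep2, Lmx1a, Gprc5b, Map6 and Oaf. With the 8 libraries fitted alone, Wnt7a, Gprc5b, Map6 and Oaf stayed called, and Hoxb9 did not (limma adjusted p 0.113). Xpnpep2 and Lmx1a were also not called by limma-voom (adjusted p 0.268 and 0.154). With the fractions averaged they were not called either (limma adjusted p 0.119 and 0.0735).

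**Figure D2:**
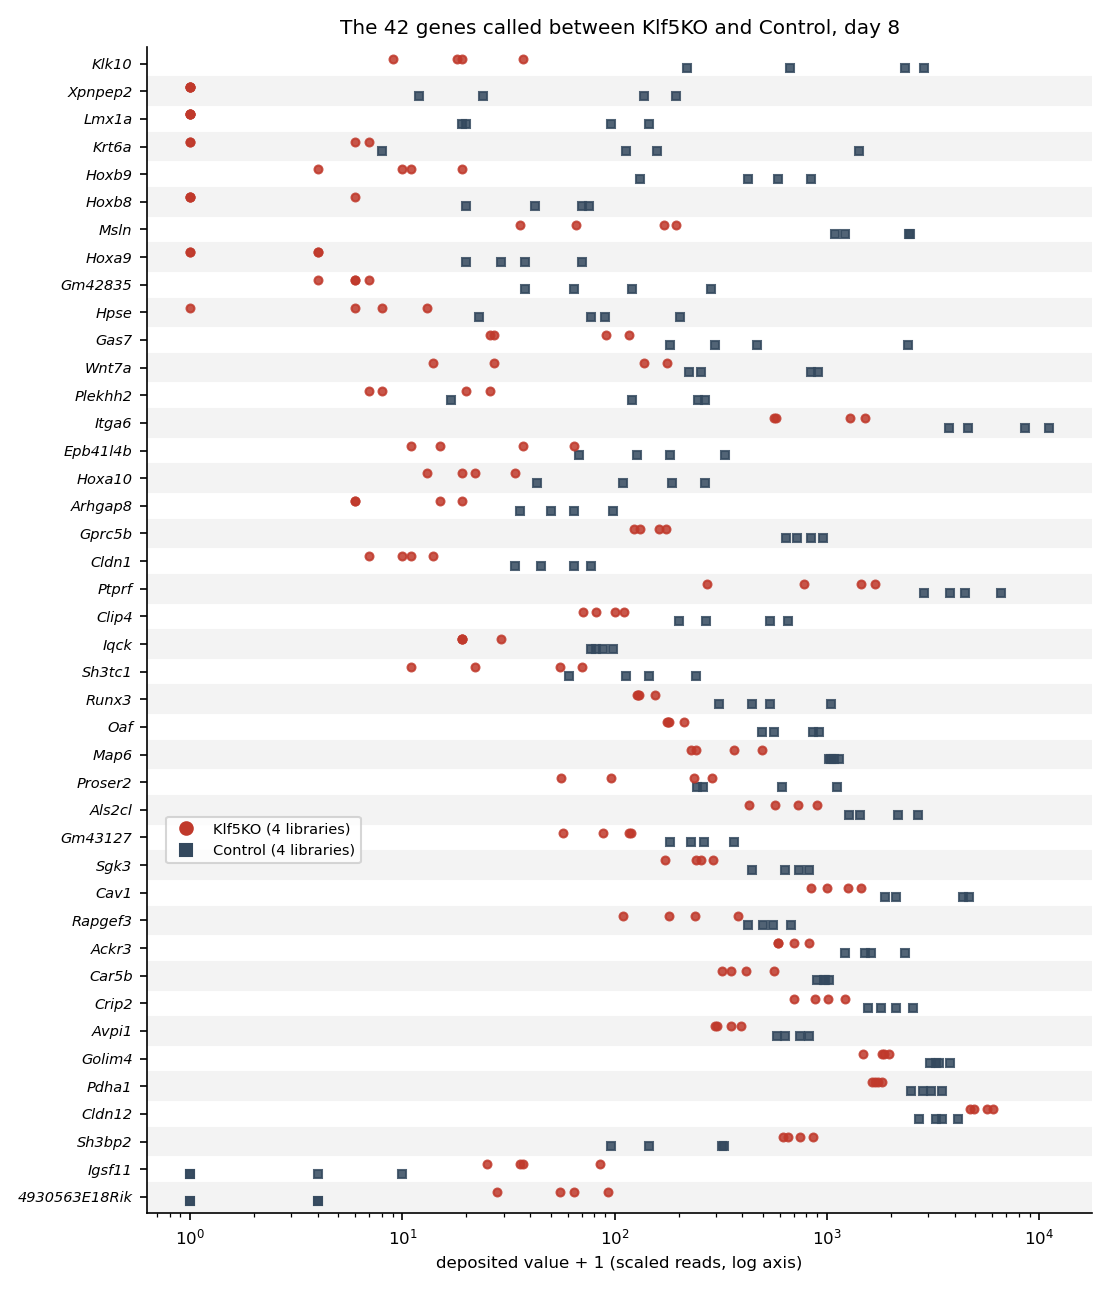
Deposited value plus 1 (log axis) of the 42 called genes, ordered by log2 fold change, with 4 Klf5KO libraries as red circles above 4 Control libraries as dark blue squares in each row. The 38 falls run down from Klk10 to Pdha1 and the 4 rises are the lowest rows. Among the falls, only Sh3tc1, Plekhh2 and Proser2 have Klf5KO circles past the lowest Control square.

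The smallest adjusted p-value was that of Wnt7a, which encodes a secreted WNT ligand that signals to neighbouring cells through Frizzled receptors. Wnt7a (ENSMUSG00000030093, chr6:91363981-91411363, minus strand) had 137 and 175 scaled reads in Klf5KO EPCAM+ and 13 and 26 in Klf5KO EPCAM- libraries, against 838 and 902 in Control EPCAM+ and 223 and 253 in Control EPCAM- libraries. The lines did not overlap, and in both lines the EPCAM+ cells held more than the EPCAM- cells. The mean was 87.8 ± 80.5 scaled reads in Klf5KO and 554.0 ± 366 in Control libraries (SD over both fractions, n = 4 each), and Wnt7a fell by 3.05 on the log2 scale (SE 0.30, limma adjusted p 0.000102). In scaled reads it was 5.58-fold lower in EPCAM+ and 12.2-fold lower in EPCAM- cells. Fold changes from the fit are on log2(value + 1), which understates the change of low genes, and in bulk libraries fewer expressing cells and less RNA per cell cannot be told apart.

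Of the 10 WNT ligand genes tested, Wnt7a was the 1 call. Wnt10a, a ligand of skin appendages, was lower in all 4 Klf5KO libraries, at 1024 and 729 scaled reads in EPCAM+ and 404 and 286 in EPCAM- libraries, against 3840 and 1692 in Control EPCAM+ and 2705 and 1106 in Control EPCAM- libraries. Its log2 fold change of -1.95 (SE 0.42) had a limma adjusted p of 0.102, and of 0.0356 with the replicate block. Wnt7b, a ligand of canonical signalling, had 5818 and 3281 scaled reads in Klf5KO EPCAM+ and 3561 and 1613 in Klf5KO EPCAM- libraries, against 4683 and 3365 in Control EPCAM+ and 1029 and 1365 in Control EPCAM- libraries. Wnt7b had a log2 fold change of 0.58 (SE 0.39). Wnt5a, a ligand of non-canonical signalling, had the highest log2 fold change of the list, 2.20 (SE 0.92, limma adjusted p 0.658), at 122 and 160 in Klf5KO EPCAM+ and 624 and 412 in Klf5KO EPCAM- libraries, against 16 and 36 in Control EPCAM+ and 103 and 175 in Control EPCAM- libraries. Klf5KO values of Wnt5a were higher than Control values within each fraction, but they overlapped across fractions. Among 24 tested WNT receptors and secreted regulators 0 were called over both fractions by limma or limma-voom, 2 had an unadjusted p below 0.05, and the median was 0.11. None of 12 tested beta-catenin target genes was called by limma or limma-voom, 0 had an unadjusted p below 0.05, and their median was 0.04.

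Promoters are shown for 5 of the 7 falls kept in all 4 joint left-out fits, because KLF factors bind CACCC and GC-box sequences. Hoxb9 and Map6 are named only. Each is the 250 bases before the RefSeq start of the gene on GRCm38.p6, 5′ to 3′ on the strand of the gene, with CACCC and CCGCCC on either strand (GGGTG and GGGCGG in reverse) in capitals. They lie at chr6:91411354-91411603 (Wnt7a, minus strand), chr1:167689308-167689557 (Lmx1a, plus strand), chr7:118995212-118995461 (Gprc5b, minus strand), chr9:43239817-43240066 (Oaf, minus strand) and chrX:48108475-48108724 (Xpnpep2, plus strand).
Wnt7a: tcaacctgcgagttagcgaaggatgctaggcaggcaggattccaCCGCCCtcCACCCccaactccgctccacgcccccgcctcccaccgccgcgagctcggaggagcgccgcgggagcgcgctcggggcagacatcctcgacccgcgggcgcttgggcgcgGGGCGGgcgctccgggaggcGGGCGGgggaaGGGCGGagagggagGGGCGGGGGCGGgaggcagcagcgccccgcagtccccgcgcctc
Lmx1a: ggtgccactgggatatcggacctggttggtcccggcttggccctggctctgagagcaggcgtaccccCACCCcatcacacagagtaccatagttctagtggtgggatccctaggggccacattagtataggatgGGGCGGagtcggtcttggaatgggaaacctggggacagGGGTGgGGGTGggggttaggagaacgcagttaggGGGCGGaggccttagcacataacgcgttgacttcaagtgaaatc
Gprc5b: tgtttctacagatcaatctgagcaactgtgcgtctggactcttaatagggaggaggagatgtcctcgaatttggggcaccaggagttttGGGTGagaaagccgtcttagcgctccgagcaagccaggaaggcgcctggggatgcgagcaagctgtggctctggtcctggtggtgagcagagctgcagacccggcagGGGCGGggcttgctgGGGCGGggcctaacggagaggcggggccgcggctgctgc
Oaf: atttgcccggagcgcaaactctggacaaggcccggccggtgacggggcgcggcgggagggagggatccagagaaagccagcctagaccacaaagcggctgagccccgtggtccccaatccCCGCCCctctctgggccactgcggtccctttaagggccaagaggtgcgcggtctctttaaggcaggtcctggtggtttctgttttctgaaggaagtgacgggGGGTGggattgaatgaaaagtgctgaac
Xpnpep2: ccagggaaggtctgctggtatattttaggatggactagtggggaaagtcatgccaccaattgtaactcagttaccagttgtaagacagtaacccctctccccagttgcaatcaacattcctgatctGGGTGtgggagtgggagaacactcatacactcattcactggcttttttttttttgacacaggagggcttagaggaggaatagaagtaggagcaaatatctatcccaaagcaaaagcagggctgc
The Wnt7a window held 6 matches to CCGCCC and 1 to CACCC at 77.6% G and C, whereas that of Xpnpep2 held 0 and 1 at 46% G and C. Of the 28 falls with a RefSeq promoter, 19 (67.9%) held CACCC and 21 (75%) held CCGCCC in this window. Among 10956 promoters of genes tested the shares were 56.9% and 57%, and among all 27025 promoters 51.3% and 32.9%. The 3 rises with a promoter held 0 matches to both. A match is a description of the letters, which grow more frequent with G and C content, and not a binding site.

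Hox genes, homeobox transcription factors that carry positional identity, were the largest group of falls from any list. Of 24 Hox genes tested, 4 fell (Hoxb9, Hoxb8, Hoxa9 and Hoxa10), 0 rose, and 7 were lower in all 4 Klf5KO than in all 4 Control libraries. Over all genes tested, 0.194% fell and 3.63% were lower in all 4 Klf5KO libraries. Limma-voom called 2 of the 24, Hoxb9 and Hoxb8, but not Hoxa9 or Hoxa10 (adjusted p 0.0693 and 0.137). Hoxb9 (ENSMUSG00000020875, chr11:96271457-96276595, plus strand) had 18 and 9 scaled reads in Klf5KO EPCAM+ and 3 and 10 in Klf5KO EPCAM- libraries, against 131 and 423 in Control EPCAM+ and 590 and 840 in Control EPCAM- libraries. The highest Klf5KO value was below the lowest Control value by a wide margin, and Control EPCAM- cells held the most. The mean was 10 ± 6.16 scaled reads in Klf5KO and 496 ± 298 in Control libraries (SD, n = 4 each), 49.6-fold lower, and the log2 fold change was -5.42 (SE 0.65, limma adjusted p 0.000471). The 4 Klf5KO values rest on 15 sequenced reads in all.

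Hoxb8, the gene 5309 bases downstream of Hoxb9, had 0 and 5 scaled reads in Klf5KO EPCAM+ and 0 and 0 in Klf5KO EPCAM- libraries, against 19 and 41 in Control EPCAM+ and 75 and 69 in Control EPCAM- libraries. Hoxb8 had a log2 fold change of -4.88 (SE 0.77, limma adjusted p 0.00684). Hoxa9 had 0, 0, 3 and 3 in the 4 Klf5KO libraries, against 19 and 28 in Control EPCAM+ and 69 and 37 in Control EPCAM- libraries (log2 -4.14, SE 0.68, limma adjusted p 0.00799). Its neighbour Hoxa10, annotated 107 bases away on the same strand, had 12 and 18 in Klf5KO EPCAM+ and 33 and 21 in Klf5KO EPCAM- libraries, against 42 and 109 in Control EPCAM+ and 266 and 186 in Control EPCAM- libraries (log2 -2.58, SE 0.49, limma adjusted p 0.0294). The falls were thus pairs of neighbours in the HoxA and HoxB clusters. The Hoxa10 call was lost in 4 of the 8 fits without 1 library (adjusted p up to 0.129), those without replicate 1 of Control EPCAM- or Klf5KO EPCAM+ and replicate 2 of Control EPCAM+ or Klf5KO EPCAM-.

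Hoxb6 was lower in all 4 Klf5KO libraries, at 12, 18, 23 and 24 scaled reads, against 45, 71, 103 and 122 in the Control libraries in the same order (log2 -2.04, SE 0.49, limma adjusted p 0.141, 0.0476 with the replicate block). Hoxb7 (log2 -2.39, SE 0.69) and Hoxb5 (log2 -2.12, SE 0.68) were apart in the same way without passing the test (limma adjusted p 0.316 and 0.416). Members at the anterior end of the clusters did not share this: Hoxa3 had a log2 fold change of 0.25 (SE 0.18), and Hoxb2, Hoxb3 and Hoxb4 had 0.09, -0.04 and 0.40, none of which passed the test. Genes of the HoxC cluster lay between -0.73 for Hoxc10 and 0.24 for Hoxc5. The median of the 24 was -0.16.

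Of 35 tested members of a list of other homeobox and developmental regulators, 0 were called by limma or limma-voom, 7 had an unadjusted p below 0.05, 6 of them lower in Klf5KO, and the median log2 fold change was -0.11. The transcription factors Lmx1a and Runx3, which are in no list, fell. Lmx1a, a LIM-homeobox factor known from midbrain and roof plate development (ENSMUSG00000026686, chr1:167689237-167848741, plus strand), was at 0 in all 4 Klf5KO libraries, against 144 and 95 scaled reads in Control EPCAM+ and 18 and 19 in Control EPCAM- libraries. With a floor of 3 reads per library in place of 0 it was at least 8.90-fold lower (limma adjusted p 0.000318). Runx3, a Runt-domain factor, had 128 and 126 scaled reads in Klf5KO EPCAM+ and 154 and 129 in Klf5KO EPCAM- libraries, against 541 and 309 in Control EPCAM+ and 1046 and 443 in Control EPCAM- libraries. Runx3 had a log2 fold change of -1.97 (SE 0.39, limma adjusted p 0.0482). The Klf5KO values of Runx3 were close to each other and all below the Control values, but the call was kept in 1 of the 8 fits without 1 library, the fit without Control EPCAM- replicate 2 (adjusted p up to 0.176 in the others).

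Several falls were genes of the epithelial surface and of squamous or simple epithelia. Klk10, of the kallikrein family of secreted serine proteases, had 18 and 36 scaled reads in Klf5KO EPCAM+ and 8 and 17 in Klf5KO EPCAM- libraries, against 2861 and 672 in Control EPCAM+ and 2326 and 218 in Control EPCAM- libraries. It was 76.9-fold lower (log2 -5.76, SE 0.74, limma adjusted p 0.00484), and replicate 1 of Control held several times the level of replicate 2. Limma-voom did not call Klk10 (adjusted p 0.357). Msln, which encodes the surface glycoprotein mesothelin, had 193 and 65 in Klf5KO EPCAM+ and 169 and 35 in Klf5KO EPCAM- libraries, against 2428 and 1216 in Control EPCAM+ and 2471 and 1094 in Control EPCAM- libraries. Msln had a log2 fold change of -4.16 (SE 0.53, limma adjusted p 0.00338). Here replicate 1 was the higher replicate in every group, and the lines were far apart in both replicates.

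Itga6, the integrin alpha 6 chain of laminin receptors and hemidesmosomes, had 1289 and 1511 scaled reads in Klf5KO EPCAM+ and 562 and 573 in Klf5KO EPCAM- libraries, against 8611 and 4624 in Control EPCAM+ and 11125 and 3738 in Control EPCAM- libraries, 7.14-fold lower. Itga6 had a log2 fold change of -2.84 (SE 0.43, limma adjusted p 0.0121). The groups did not overlap in either fraction. Ptprf, the receptor tyrosine phosphatase LAR, had 1452 and 1692 in Klf5KO EPCAM+ and 272 and 778 in Klf5KO EPCAM- libraries, against 6633 and 3779 in Control EPCAM+ and 4452 and 2860 in Control EPCAM- libraries. Ptprf had a log2 fold change of -2.31 (SE 0.34, limma adjusted p 0.00783). Cldn1, a tight junction claudin at low level, had 6, 9, 13 and 10 in the 4 Klf5KO libraries, against 76, 33, 63 and 44 in the Control libraries (log2 -2.36, SE 0.48, limma adjusted p 0.0446), and its call was lost in 6 of the 8 fits without 1 library (adjusted p up to 0.163), the fits without Control EPCAM+ replicate 2 and Klf5KO EPCAM+ replicate 2 being those that kept it.

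Cldn1 was the 1 call among 33 tested epithelial junction genes, whose median log2 fold change was -0.20. Limma-voom called 0 of the 33, and 10 had an unadjusted p below 0.05, 8 of them lower and 2 higher in Klf5KO. With the replicate block Perp and Pkp1, both desmosome genes, were also called. Perp had 947 and 879 scaled reads in Klf5KO EPCAM+ and 317 and 288 in Klf5KO EPCAM- libraries, against 2723 and 1511 in Control EPCAM+ and 1836 and 684 in Control EPCAM- libraries (log2 -1.52, SE 0.32, limma adjusted p 0.0693, 0.00794 with the block). Pkp1 had a log2 fold change of -1.17 (SE 0.45, limma adjusted p 0.613, 0.0034 with the block), with replicate 1 above replicate 2 in every group. Cdh1, the E-cadherin gene, did not differ beyond its error (log2 0.31, SE 0.29, limma adjusted p 0.93). Cldn4 had 10490 and 6665 in Klf5KO EPCAM+ and 2310 and 1455 in Klf5KO EPCAM- libraries, against 4104 and 5909 in Control EPCAM+ and 95 and 1069 in Control EPCAM- libraries (log2 1.64, SE 0.81, limma adjusted p 0.779). None of 19 tested epithelial transcription and splicing regulators was called by limma or limma-voom and 0 had an unadjusted p below 0.05, so that Grhl2 (log2 -0.17, SE 0.41) and Esrp1 (log2 0.30, SE 0.35) were not separated from Control.

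Of 14 keratins tested 1 fell, and limma-voom called 0 of the 14. Krt6a, a keratin of hair follicle and stressed epidermis, had 6 and 5 scaled reads in Klf5KO EPCAM+ and 0 and 0 in Klf5KO EPCAM- libraries, against 1415 and 157 in Control EPCAM+ and 112 and 7 in Control EPCAM- libraries. Krt6a had a log2 fold change of -5.55 (SE 0.96, limma adjusted p 0.0125). The Control libraries ranged widely, with EPCAM- replicate 2 next to the Klf5KO level, and the call was lost without Control EPCAM+ replicate 1 (adjusted p 0.0613) or Control EPCAM- replicate 1. Krt14, a basal keratin, had 2583 and 863 in Klf5KO EPCAM+ and 2557 and 665 in Klf5KO EPCAM- libraries, against 12774 and 2006 in Control EPCAM+ and 6797 and 2112 in Control EPCAM- libraries. Krt14 had a log2 fold change of -1.65 (SE 0.87, limma adjusted p 0.808). The simple-epithelial pair Krt8 and Krt18 had log2 fold changes of 0.30 (SE 0.15) and 0.34 (SE 0.17), neither of which passed the test.

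Squamous differentiation genes had low values in Klf5KO but no call. Of 25 in the table, 15 were tested, 0 were called by limma or limma-voom, and 5 had an unadjusted p below 0.05, all lower in Klf5KO. Of the 15 log2 fold changes, 12 were negative with a median of -1.12, against 53.02% negative and -0.03 over all genes tested. Against the other knockouts the median of the 15 was -0.23, beside -0.02 over all genes tested. The 25 summed to 1139 and 1082 scaled reads in Klf5KO EPCAM+ and 613 and 458 in Klf5KO EPCAM- libraries. In Control they summed to 4757 and 1861 in EPCAM+ and 1189 and 604 in EPCAM- libraries, with EPCAM+ replicate 1 far above the others. Cnfn, which encodes the cornified envelope protein cornifelin, had 0 and 5 scaled reads in Klf5KO EPCAM+ and 0 and 3 in Klf5KO EPCAM- libraries, against 917 and 47 in Control EPCAM+ and 493 and 7 in Control EPCAM- libraries. Cnfn had a log2 fold change of -5.70 (SE 1.31, limma adjusted p 0.135). The level of Cnfn in Control rested on replicate 1. Lypd3, a GPI-anchored surface protein of the suprabasal epidermis, had 211 and 325 in Klf5KO EPCAM+ and 45 and 51 in Klf5KO EPCAM- libraries, against 669 and 520 in Control EPCAM+ and 117 and 88 in Control EPCAM- libraries. Lypd3 had a log2 fold change of -1.12 (SE 0.28, limma adjusted p 0.173, 0.0363 with the replicate block). Lypd3 was lower in Klf5KO within each fraction, although the fractions overlapped.

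Signalling and cytoskeletal genes made up a further set of falls. Gprc5b, an orphan receptor of the G protein-coupled class (ENSMUSG00000008734, chr7:118972047-118995211, minus strand), had 131 and 160 scaled reads in Klf5KO EPCAM+ and 122 and 173 in Klf5KO EPCAM- libraries, against 721 and 637 in Control EPCAM+ and 955 and 837 in Control EPCAM- libraries. The values varied little within a line, and the gene was 5.38-fold lower (log2 -2.42, SE 0.28, limma adjusted p 0.000318). Iqck, a fall of low level (log2 -2.02, limma adjusted p 0.0139, lost without Control EPCAM- replicate 1 at 0.0548), overlaps Gprc5b on the opposite strand at chr7:118972047-118972652. The sources used here do not say whether counting used the strand, so reads in that shared stretch cannot be told apart. Map6, which encodes a protein that stabilises microtubules (ENSMUSG00000055407, chr7:99267447-99337137, plus strand), had 229 and 240 in Klf5KO EPCAM+ and 364 and 491 in Klf5KO EPCAM- libraries, against 1039 and 1021 in Control EPCAM+ and 1140 and 1078 in Control EPCAM- libraries. Map6 had a log2 fold change of -1.76 (SE 0.19, limma adjusted p 0.000161). Its Control level was the most even of the falls described here, at 1070 ± 52.7 scaled reads (SD, n = 4).

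Sgk3, a kinase that acts downstream of PI3-kinase, had 253 and 290 scaled reads in Klf5KO EPCAM+ and 171 and 240 in Klf5KO EPCAM- libraries, against 825 and 734 in Control EPCAM+ and 636 and 441 in Control EPCAM- libraries. Sgk3 had a log2 fold change of -1.45 (SE 0.21, limma adjusted p 0.00217). Ackr3, a scavenging receptor of the chemokine CXCL12, had 585 and 588 in Klf5KO EPCAM+ and 821 and 702 in Klf5KO EPCAM- libraries, against 1217 and 1505 in Control EPCAM+ and 1605 and 2330 in Control EPCAM- libraries. Ackr3 had a log2 fold change of -1.28 (SE 0.22, limma adjusted p 0.0125). Both genes were apart in both fractions. Als2cl fell by 1.51 on the log2 scale (SE 0.21, limma adjusted p 0.00215), and Gm43127, which overlaps it on the opposite strand and fell by 1.46, may share its reads. Cav1, the scaffold of caveolae, fell by 1.43 (limma adjusted p 0.0151), a call lost in 3 of the 8 fits without 1 library (adjusted p up to 0.0641), those without Control EPCAM- replicate 1 and replicate 2 of Klf5KO EPCAM+ or EPCAM-. Rapgef3, a cAMP-activated exchange factor for Rap, fell by 1.37 (limma adjusted p 0.0178) and was called in 4 of those 8 fits, failing without replicate 1 of any of the 4 groups (adjusted p up to 0.0756).

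Epb41l4b, a FERM-domain protein, was 5.72-fold lower (log2 -2.60, SE 0.35, limma adjusted p 0.0013), at 36 and 63 scaled reads in Klf5KO EPCAM+ and 10 and 14 in Klf5KO EPCAM- libraries, against 329 and 182 in Control EPCAM+ and 126 and 67 in Control EPCAM- libraries. Gas7, a growth-arrest gene linked to actin, was 13.0-fold lower (log2 -3.25, limma adjusted p 0.0357), with Control at 2397 and 296 in EPCAM+ and 465 and 182 in EPCAM- libraries, and its call was kept in 2 of the 8 fits without 1 library (adjusted p up to 0.108), those without Control EPCAM+ replicate 1 or 2. Arhgap8, which encodes a GTPase-activating protein, fell by 2.53 (limma adjusted p 0.017) and was called in 5 of them (adjusted p up to 0.0756), failing without replicate 1 of Control EPCAM+ or EPCAM- and without Klf5KO EPCAM+ replicate 2. The remaining falls were Clip4 (log2 -2.05), Proser2 (-1.73), Sh3tc1 (-2.01), Plekhh2 (-3.05), Crip2 (-1.08), Avpi1 (-1.04) and the predicted gene Gm42835 (-4.08). Of these, Clip4, Proser2 and Gm42835 kept their call in all 8 fits, and Sh3tc1, Plekhh2, Crip2 and Avpi1 kept it in 4, 3, 1 and 2. Sh3tc1 lost it without Control EPCAM+ 1, Control EPCAM- 1, Klf5KO EPCAM- 1 or Klf5KO EPCAM+ 2, and Plekhh2 without Control EPCAM- 1 or any of the 4 Klf5KO libraries. Crip2 kept it without Control EPCAM- 2, and Avpi1 without Control EPCAM+ 2 or Klf5KO EPCAM- 1. Gm42835 overlaps Bcar3 on the opposite strand. Gas7, Rapgef3, Krt6a, Golim4, Sh3tc1, Klk10 and Pdha1 also overlap genes annotated on the opposite strand, none of which was called. For these too, reads in the shared stretches cannot be told apart.

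Falls among secreted, matrix and metabolic proteins were led by Xpnpep2 and Oaf. Xpnpep2, a membrane-bound aminopeptidase (ENSMUSG00000037005, chrX:48108725-48136981, plus strand), was at 0 in all 4 Klf5KO libraries, against 136 and 11 scaled reads in Control EPCAM+ and 194 and 23 in Control EPCAM- libraries, at least 11.7-fold lower with a floor of 3 reads per library (limma adjusted p 0.00111). The lowest Control value was close to the floor. Oaf, named after a fly gene (ENSMUSG00000032014, chr9:43221235-43239911, minus strand), had 179 and 178 in Klf5KO EPCAM+ and 176 and 212 in Klf5KO EPCAM- libraries, against 564 and 496 in Control EPCAM+ and 918 and 860 in Control EPCAM- libraries. Oaf had a log2 fold change of -1.88 (SE 0.22, limma adjusted p 0.000318). Hpse, the heparan sulfate-cleaving enzyme heparanase, had 0, 7, 5 and 12 in the 4 Klf5KO libraries, against 89, 22, 203 and 76 in the Control libraries (log2 -3.92, SE 0.68, limma adjusted p 0.0126), and its call was lost without replicate 1 of Control EPCAM+ or EPCAM- (adjusted p up to 0.0613).

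The mitochondrial enzymes Pdha1 and Car5b fell by smaller amounts. Pdha1, a subunit of pyruvate dehydrogenase, had 1633 and 1690 scaled reads in Klf5KO EPCAM+ and 1813 and 1742 in Klf5KO EPCAM- libraries, against 2485 and 3075 in Control EPCAM+ and 2824 and 3499 in Control EPCAM- libraries, 1.73-fold lower. Pdha1 had a log2 fold change of -0.78 (SE 0.13, limma adjusted p 0.0125). Car5b, a carbonic anhydrase, fell by 1.26 (SE 0.21, limma adjusted p 0.0115). Both lie on chromosome X, whose median log2 fold change over 311 genes was -0.02, within the -0.12 to 0.07 spanned by the chromosomes. Golim4, a Golgi membrane protein, fell by 0.93 (limma adjusted p 0.0258), a call lost in 6 of the 8 fits without 1 library (adjusted p up to 0.119) and kept without Control EPCAM- replicate 2 or Klf5KO EPCAM+ replicate 2.

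The 4 rises were Igsf11, 4930563E18Rik, Sh3bp2 and Cldn12. Igsf11, an adhesion protein of the immunoglobulin superfamily, had 84 and 36 scaled reads in Klf5KO EPCAM+ and 35 and 24 in Klf5KO EPCAM- libraries, against 3 and 9 in Control EPCAM+ and 0 and 0 in Control EPCAM- libraries. Igsf11 had a log2 fold change of 4.03 (SE 0.65, limma adjusted p 0.00783). Sh3bp2, an adaptor protein of immune and bone-resorbing cells, had 743 and 621 in Klf5KO EPCAM+ and 861 and 654 in Klf5KO EPCAM- libraries, against 144 and 325 in Control EPCAM+ and 95 and 319 in Control EPCAM- libraries, 3.26-fold higher. Sh3bp2 had a log2 fold change of 1.87 (SE 0.33, limma adjusted p 0.0178). Cldn12, a claudin, was 1.57-fold higher (log2 0.66, SE 0.13, limma adjusted p 0.044). 4930563E18Rik, an uncharacterised transcript of chromosome 18, had 54, 27, 92 and 63 in the 4 Klf5KO libraries, against 3, 0, 3 and 0 in the Control libraries. The transcript 4930563E18Rik had a log2 fold change of 4.78 (SE 0.83, limma adjusted p 0.0125). Igsf11 and 4930563E18Rik kept their call in all 8 fits without 1 library, whereas Sh3bp2 kept it in 4, losing it without Control EPCAM+ 1, Klf5KO EPCAM+ 1 or 2, or Klf5KO EPCAM- 1 (adjusted p up to 0.0756), and Cldn12 in 1, the fit without Control EPCAM- replicate 2 (adjusted p up to 0.176 in the others).

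Lists of other programmes held few calls. Over all 19569 genes tested, 1332 had an unadjusted p below 0.05. EMT transcription factors (0 of 18 called by limma or limma-voom, 1 with an unadjusted p below 0.05, median 0.01) and mesenchymal cytoskeleton and adhesion genes (0 of 22, 5 unadjusted, median 0.20) were not separated as groups, although Cdh11, a mesenchymal cadherin, had 15, 0, 20 and 5 scaled reads in the 4 Klf5KO libraries, against 47, 41, 357 and 340 in the Control libraries (log2 -4.22, SE 1.08, limma adjusted p 0.197). Collagen and matrix genes gave 0 of 36 (9 unadjusted), and Lamc1, a laminin chain, was called with the replicate block (log2 -0.67, SE 0.16, limma adjusted p 0.146, 0.0128 with the block). Cell cycle genes gave 0 of 40 (1 unadjusted) with 31 negative values and a median of -0.19. Their sums were 116430 and 170368 scaled reads in Klf5KO EPCAM+ and 115625 and 163882 in Klf5KO EPCAM- libraries. In Control the sums were 169337 and 166676 in EPCAM+ and 158379 and 154422 in EPCAM- libraries. Only replicate 1 of Klf5KO thus lay below Control in its sum. Mki67, the proliferation marker, had 7344 and 10331 in Klf5KO EPCAM+ and 7522 and 11350 in Klf5KO EPCAM- libraries, against 11929 and 12904 in Control EPCAM+ and 14716 and 11834 in Control EPCAM- libraries. Mki67 had a log2 fold change of -0.51 (SE 0.32, limma adjusted p 0.864). All 4 Klf5KO values of Mki67 were below the Control values, but the difference was under 2 standard errors.

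Positive medians appeared in AP-1 and immediate early genes (0 of 20 called, 4 unadjusted, median 0.56), chemokines and cytokines (0 of 22, 3 unadjusted, median 0.60), matrix proteases and inhibitors (0 of 24, 6 unadjusted, median 0.48) and cholesterol and fatty acid synthesis (0 of 28, 5 unadjusted, median 0.30), and limma-voom called 0 in each. Ier3, an early-response gene, had 4245 and 2463 scaled reads in Klf5KO EPCAM+ and 4058 and 2320 in Klf5KO EPCAM- libraries, against 1347 and 1757 in Control EPCAM+ and 1519 and 1509 in Control EPCAM- libraries. Ier3 had a log2 fold change of 1.04 (SE 0.35, limma adjusted p 0.508). Replicate 1 was the higher Klf5KO replicate in both fractions, and this also held for the sums of all 4 lists. The AP-1 list summed to 57816 and 28788 in Klf5KO EPCAM+ and 60727 and 30207 in Klf5KO EPCAM- libraries, against 24634 to 36148 in Control. Replicate 2 of Klf5KO was thus inside the Control range. The cholesterol list summed to 117394 and 88798, and to 113311 and 79025, in the same order, against 65484 to 85182 in Control. In the NRF2 and glutathione list 0 of 20 were called (5 unadjusted), and Srxn1 was called with the replicate block (log2 0.74, SE 0.24, limma adjusted p 0.435, 0.0468 with the block). The plot of gene lists shows the called genes among the other tested members of each list.

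**Figure D3:**
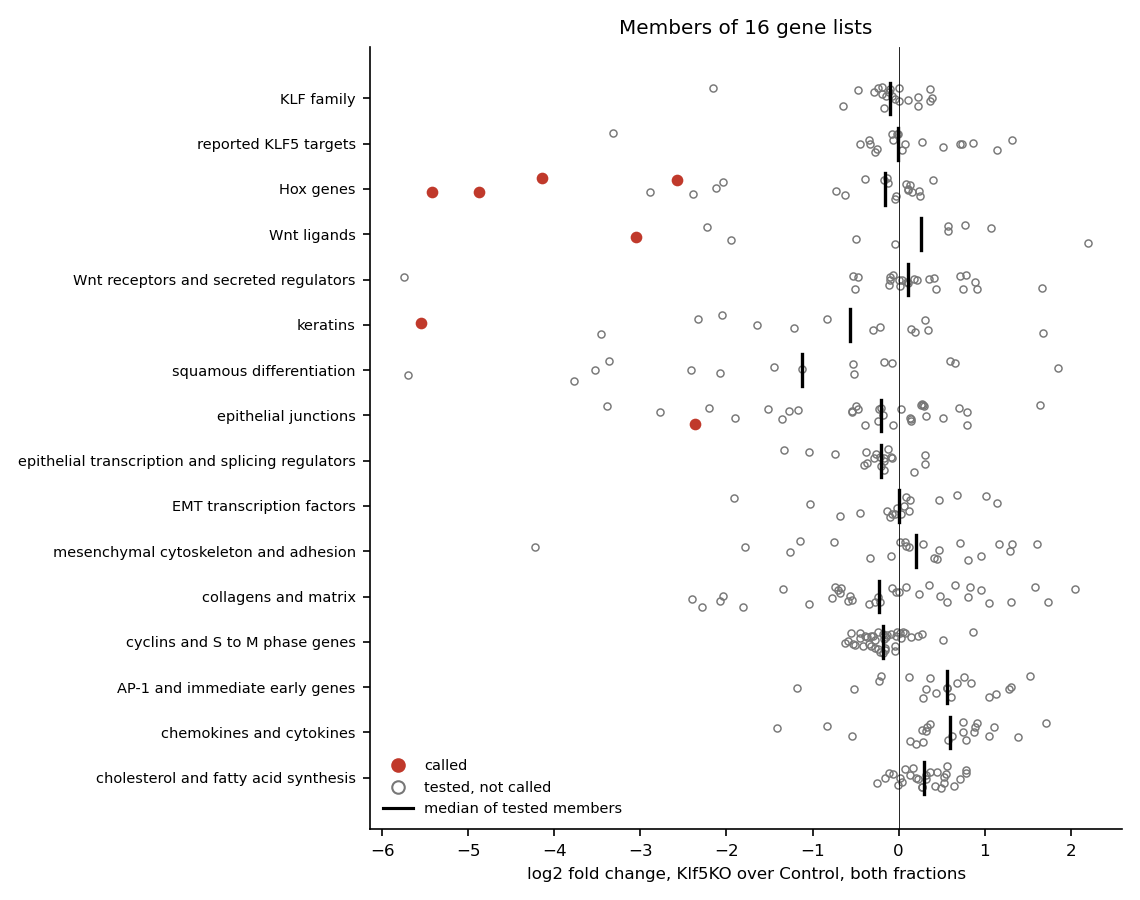
Log2 fold change of Klf5KO over Control, both fractions, for the tested members of 16 gene lists, with called genes in red, other tested members as open circles and the median of each list as a black bar. The 4 called Hox genes, Wnt7a, Krt6a and Cldn1 are the calls shown, and the list medians run from -1.12 (squamous differentiation) to 0.60 (chemokines and cytokines).

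Within single fractions fewer genes passed. In EPCAM+ cells 18 genes fell (0.092% of those tested) and 0 rose, while 807 genes were higher at an unadjusted p below 0.05, limma-voom called 9 falls and 0 rises, and the replicate block gave 44 calls (0.225%), 35 lower (0.179%) and 9 higher (0.046%). Leaving out 1 library gave 3 calls without Control EPCAM+ replicate 1, 46 without Control EPCAM+ replicate 2, and 5 and 4 without Klf5KO EPCAM+ replicate 1 and 2. In EPCAM- cells 35 genes were called (0.179%), 31 lower (0.158%) and 4 higher (0.0204%), and 74 with the block (0.378%), 62 lower (0.317%) and 12 higher (0.0613%). Here leaving out 1 library gave 6 calls without Control EPCAM- replicate 1, 65 without Control EPCAM- replicate 2, and 15 and 20 without Klf5KO EPCAM- replicate 1 and 2. Plscr2, a phospholipid scramblase family gene, was the rise named in EPCAM- cells that was not called over both fractions without the replicate block. It had 821 and 1034 scaled reads in Klf5KO EPCAM- libraries, against 271 and 420 in Control EPCAM- libraries (log2 1.45, limma adjusted p 0.0235). Over both fractions Plscr2 had a limma adjusted p of 0.142, and of 0.0221 with the block. Sostdc1, a secreted WNT and BMP antagonist, was at 0 in all 4 Klf5KO libraries, against 1801 and 67 in Control EPCAM- and 66 and 0 in Control EPCAM+ libraries, and its EPCAM- log2 fold change was -8.45 (limma adjusted p 0.017), with Control EPCAM- replicate 1 far above the other libraries. Over both fractions Sostdc1 had a limma adjusted p of 0.0971, and of 0.0297 with the block. Tph1, a tryptophan hydroxylase, fell in EPCAM- cells to 0 and 0, against 38 and 97 in Control EPCAM- libraries (limma adjusted p 0.0407).

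The Klf5KO effect was tested for a difference between the fractions, and no gene passed. Limma called 0 of 19569 genes, the smallest adjusted p was 0.488, 1060 genes had an unadjusted p below 0.05, and limma-voom and the replicate block called 0 as well (0% in each direction), while 5 genes were called without Control EPCAM+ replicate 2 and 3 without Control EPCAM- replicate 2. Hoxb9 had a log2 fold change of -4.10 in EPCAM+ and -6.73 in EPCAM- cells, a difference of -2.63 with a limma adjusted p of 0.663. Wnt7a had -2.48 and -3.62, a difference of -1.14 (limma adjusted p 0.731), and Lmx1a had -6.88 and -4.28, a difference of 2.60 (limma adjusted p 0.649). With 2 libraries a group, the median standard error of this difference was 0.38 over all genes tested. The plot of the fractions sets both effects of each called gene side by side.

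**Figure D4:**
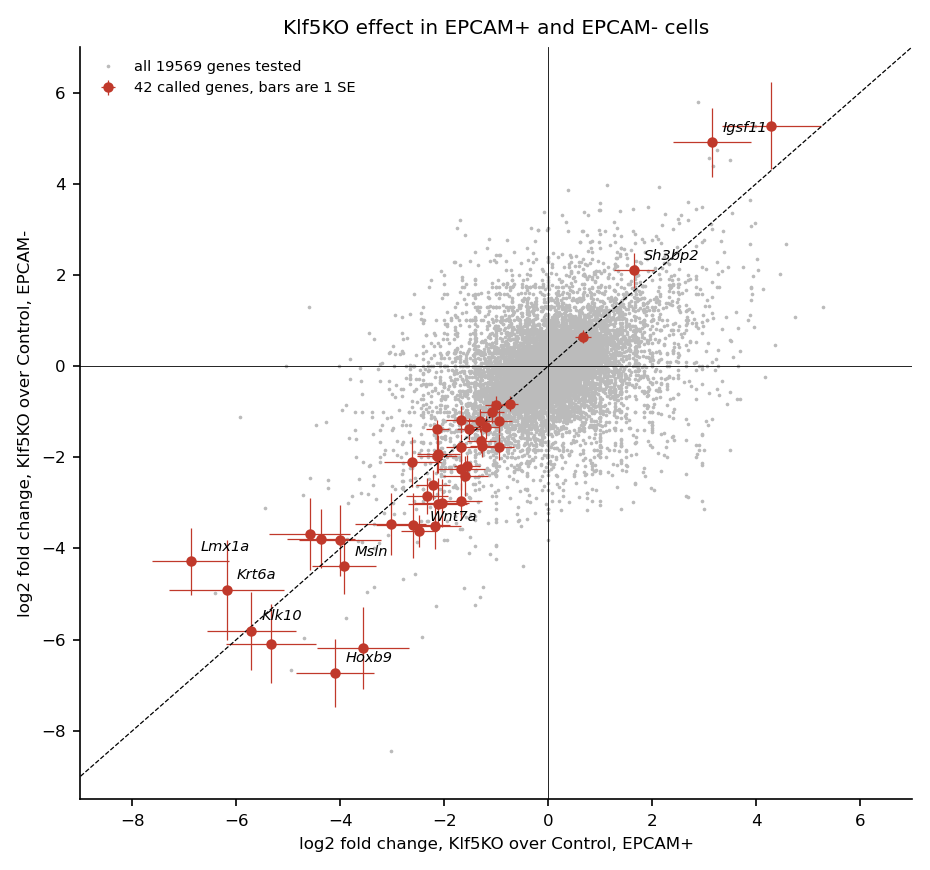
Log2 fold change of Klf5KO over Control in EPCAM+ cells (horizontal) and in EPCAM- cells (vertical) for all 19569 genes tested in grey and the 42 called genes in red with bars of 1 SE, with the dashed line at equal change. Hoxb9 lies below the line at -4.10 and -6.73, Lmx1a above it at -6.88 and -4.28, and no gene was called for the difference.

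To see which differences were also differences from other edited lines, Klf5KO was compared with the mean of the Pitx1KO, Nfatc1KO and Creb3l1KO lines, 4 libraries against 12. This comparison uses the same Klf5KO libraries as the one with Control, so the results are given side by side and are not independent. Limma called 50 genes (0.256%), 22 higher (0.112%) and 28 lower (0.143%) in Klf5KO, and 143 with the replicate block (0.731%), 73 higher (0.373%) and 70 lower (0.358%). With limma-voom on recovered reads the balance was the other way, with 33 higher and 11 lower of 44 calls. Without Klf5KO EPCAM- replicate 2 limma called 33, and without both fractions of Klf5KO replicate 1 or 2 limma called 9 and 16. Wnt7a averaged 87.8 scaled reads in Klf5KO, against 469 in Pitx1KO, 488 in Nfatc1KO, 1034 in Creb3l1KO and 554.0 in Control libraries, and its log2 fold change against the other knockouts was -3.27 (SE 0.25, limma adjusted p 1.14e-06). Map6 averaged 331 in Klf5KO, against 1138, 1079 and 1350 in the 3 other knockouts and 1070 in Control (log2 -1.89 against the other knockouts, limma adjusted p 2.01e-06). Lmx1a, at 0 in Klf5KO, averaged 70.5 in Pitx1KO, 62.8 in Nfatc1KO and 61.0 in Creb3l1KO libraries (log2 -5.61, limma adjusted p 1.32e-05).

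Klk10, Msln, Xpnpep2, Ptprf and Gprc5b were likewise lower in every Klf5KO library than in every library of the other 4 lines of the same fraction, with log2 fold changes against the other knockouts of -4.99, -3.90, -5.31, -2.04 and -1.72 (limma adjusted p 0.00214, 0.00118, 0.00029, 0.00266 and 0.0015). Hoxb9 was different: it averaged 10 scaled reads in Klf5KO, against 164 in Pitx1KO, 66.0 in Nfatc1KO, 10.8 in Creb3l1KO and 496 in Control libraries. Its log2 fold change against the other knockouts was -2.20 (SE 0.53), with a limma adjusted p of 0.129, and of 0.0464 with the replicate block. Creb3l1KO and Klf5KO thus held about the same low level of Hoxb9. Hoxb8, Hoxa9 and Hoxa10 averaged 1.25, 1.5 and 21 in Klf5KO and 51, 38.25 and 150.75 in Control libraries. These 3 genes averaged 12, 4 and 31.5 in Nfatc1KO, 3.25, 8 and 43 in Creb3l1KO, and 97.25, 45.25 and 100 in Pitx1KO libraries. Against the other knockouts Hoxb8 was called (limma adjusted p 0.0376). Hoxa9 (limma adjusted p 0.0652, 0.0186 with the block) and Hoxa10 (0.461) were not called without the block. Krt6a averaged 2.75 in Klf5KO, against 7.50 in Pitx1KO, 6.25 in Nfatc1KO, 43.2 in Creb3l1KO and 423 in Control libraries (log2 -1.84 against the other knockouts, limma adjusted p 0.852). Oaf averaged 186 in Klf5KO, against 128, 304 and 464 in the 3 other knockouts and 710 in Control (log2 -0.44, limma adjusted p 0.775), and Itga6 averaged 984 in Klf5KO, against 1623, 3684 and 4083 and 7024 in Control (log2 -1.57, limma adjusted p 0.122). For Hoxb9, Krt6a, Oaf and Itga6 every other edited line was also below Control in its mean. The same held for Klk10, Msln, Xpnpep2, Ptprf and Gprc5b, and for every other fall except Wnt7a, Lmx1a, Map6, Hoxb8, Hoxa9, Sh3tc1 and Proser2. Pdha1 averaged 1719.5 in Klf5KO, against 1962.5 in Pitx1KO, 2095.25 in Nfatc1KO, 1831 in Creb3l1KO and 2970.75 in Control libraries (log2 -0.18 against the other knockouts). Runx3 averaged 134.25, against 155, 346.5 and 330.5 and 584.75 in Control (log2 -0.87, limma adjusted p 0.638). Of the 38 falls from Control, 20 were also called lower than the other knockouts.

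**Figure D5:**
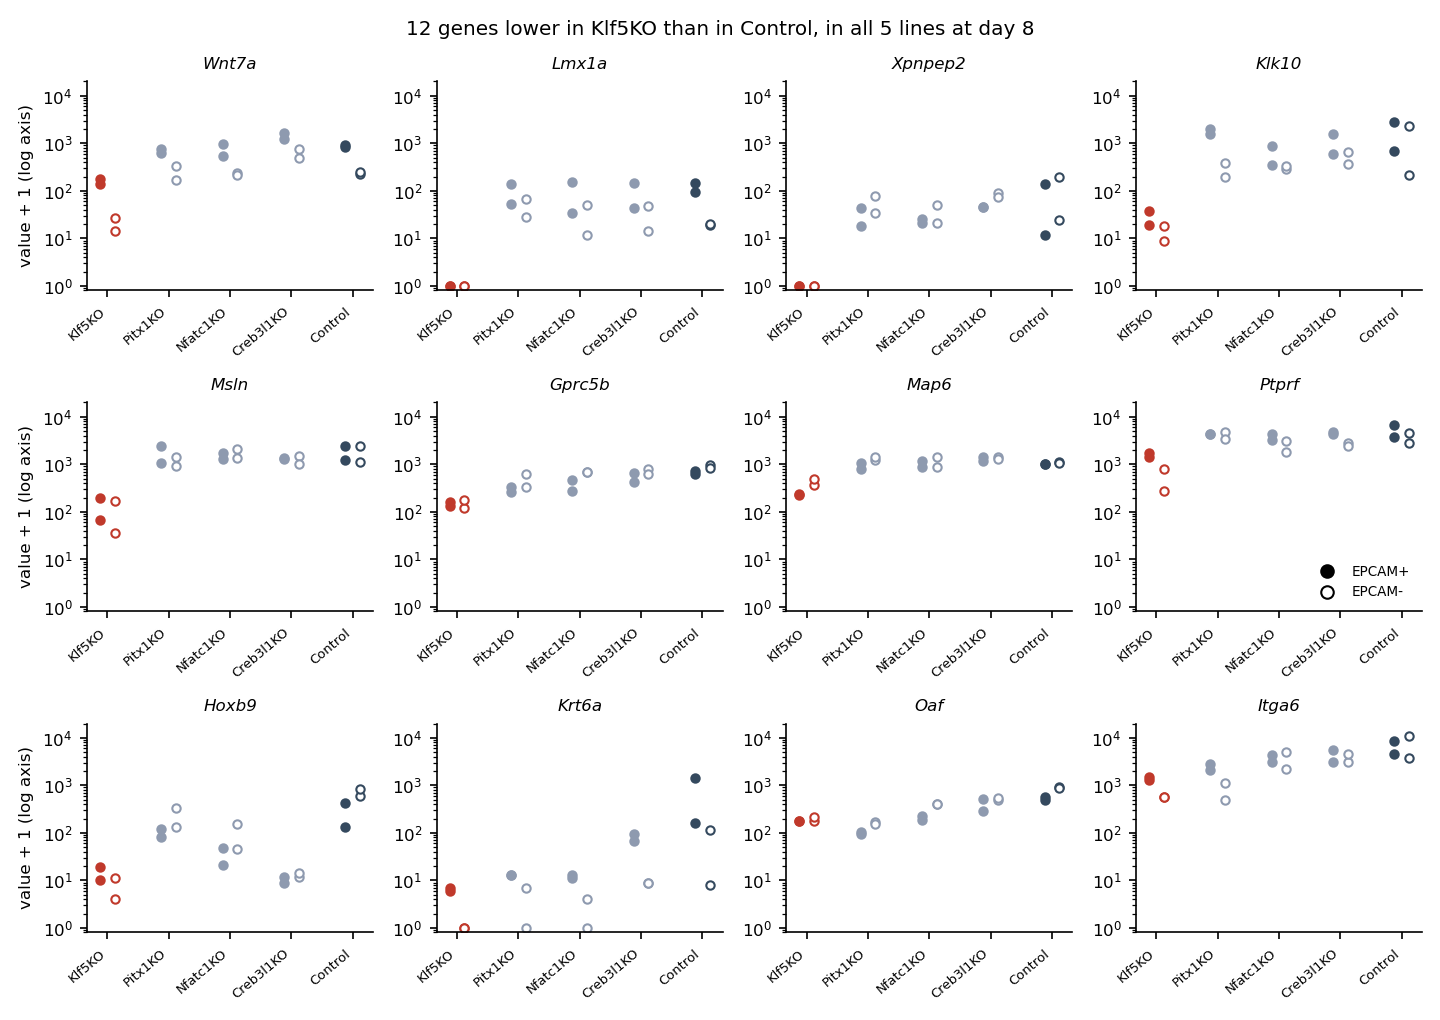
Deposited value plus 1 (log axis) of 12 called falls in the 5 lines at day 8, Klf5KO in red, 3 other knockouts in grey and Control in dark blue, with filled circles for EPCAM+ and open circles for EPCAM- libraries, 4 per line. Wnt7a, Lmx1a, Xpnpep2, Klk10, Msln, Gprc5b, Map6 and Ptprf are lowest in Klf5KO, whereas Hoxb9 is as low in Creb3l1KO and Krt6a is near its Klf5KO level in Pitx1KO and Nfatc1KO.

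The rises against the other knockouts were of another kind, since several genes were near 0 in a different line. Emb, a basigin-family membrane protein, had 72 and 61 scaled reads in Klf5KO EPCAM+ and 35 and 37 in Klf5KO EPCAM- libraries and averaged 0 in Pitx1KO, 16.5 in Nfatc1KO and 0 in Creb3l1KO libraries (log2 4.30, limma adjusted p 0.00194), but it did not differ from Control. Emb had a log2 fold change of 0.64 (SE 0.74, limma adjusted p 0.954). Krt17, Tbx3 and Gata4 were called in the same way (log2 3.99, 4.40 and 3.33), with Krt17 averaging 38.8 in Pitx1KO, 4663 in Nfatc1KO and 115 in Creb3l1KO libraries. Nptxr, a neuronal pentraxin receptor, had a mean in Klf5KO above that of each other line, at 909 and 1202 in Klf5KO EPCAM+ and 797 and 1135 in Klf5KO EPCAM- libraries, against means of 476, 444 and 318 in Pitx1KO, Nfatc1KO and Creb3l1KO libraries (log2 1.33, limma adjusted p 0.00402), and against Control it was called with the replicate block (log2 0.77, limma adjusted p 0.439, 0.0224 with the block). Of the 4 rises over Control, 1 was also called higher than the other knockouts, 4930563E18Rik. It averaged 0 in Pitx1KO, 62.8 in Nfatc1KO and 0 in Creb3l1KO libraries. Sh3bp2 averaged 793.75, 619.5 and 440 in these 3 lines, against 719.75 in Klf5KO and 220.75 in Control libraries. Igsf11 averaged 17.5, 49.25 and 14 in the same order, against 44.75 in Klf5KO and 3 in Control libraries. Cldn12 had a limma adjusted p of 0.149 against the other knockouts, and of 0.0477 with the replicate block, which called it higher in Klf5KO.

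Across the 20 day 8 libraries, the genes most like Hoxb9 by Pearson correlation of log2(value + 1) among 12581 genes were Hoxb6 (0.84), Map3k15 (0.83), Pdha1 (0.80), Stom (0.79) and Panx1 (0.78). Map3k15 overlaps Pdha1 on the opposite strand. For Wnt7a they included Sh3tc1 (0.93), F2rl1 (0.93), Trpv4 (0.86) and Ptprf (0.85). These values describe 5 lines of 4 libraries each, in which libraries of a line share their cells, and they are not independent points.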

How the data were processed

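Bulk RNA-seq of sorted cells gave 1 deposited table of 22 libraries. Per the submitters' processing notes the tools were FastQC, Trimmomatic, STAR, Picard and HTSeq on GRCm38, and strandedness and versions are not given in the sources used here. The values the authors deposited are normalised counts, whole numbers of about the same total in every library, treated here as a score and not as raw counts. Values of a library were multiples of 2.02 to 3.30 units, the worth of 1 read, which gave 6054919 to 9882692 reads in genes per library.

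Values were taken as log2(value + 1). Genes with 10 or more in 2 or more libraries (19569) were fitted with limma 3.58.1 in R 4.3.3 over all 22 libraries, with 1 mean per group, trended robust variance and a within-line correlation of 0.503 (statmod 1.5.0). Benjamini-Hochberg adjustment ran over all 19569 genes, with calls at an adjusted p below 0.05. The fit was also run on simulated data whose spreads came from these libraries. That run checked the code and cannot speak to the shifts between settings reported below. Coordinates came from GENCODE on GRCm38 (49326 of 49671 identifiers matched) and promoters from RefSeq GRCm38.p6 (31 of 42 called genes matched). Python 3.11.15 and matplotlib 3.10.9 drew the figures.

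Genes were named by rule: Klf5, Epcam, Hoxb9, Wnt7a and the KLF family always; up to 15 called rises and falls by size with a mean of at least 50 and no overlap; up to 6 each way in the other comparisons; called members of lists; and the 5 genes most like Hoxb9 and Wnt7a. Some items that these rules or the labels name are not reported here. Other called genes, and list members that were not called, were chosen after their values were seen. The members and lists were chosen with earlier results of these data known. The labels tag the replicate number as a batch, so a fit with it as a block stands beside many of the results it changes, though not all. Differences between replicates correlated at 0.538 to 0.778 between the 2 fractions of a line, and at -0.003 to 0.177 between Klf5KO and Control groups.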

Additional observations from a re-analysis of the deposited data

How the results depend on the processing

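The count of 42 calls over both fractions moved with the treatment of the libraries. It was 109 with no within-line correlation, 104 with the replicate block and 317 with the block and no correlation, against 9 with the fractions averaged, 4 with the 8 libraries alone, 24 among genes with a mean of at least 50 and 23 with limma-voom on recovered reads. Leaving out 1 library gave 28 to 67, and leaving out both fractions of a line and number gave 16 (Klf5KO 1), 24 (Klf5KO 2), 12 (Control 1) and 243 (Control 2, 119 lower and 124 higher). Pseudocounts of 0.5 and 5 gave 44 and 47, no filter 57, TMM scaling 39, median-of-ratios scaling 40 and no robust prior 45. In EPCAM+ cells (18) the count was 10 with no correlation, 44 with the block, 0 with the groups compared alone (1114 at an unadjusted p below 0.05), 9 with limma-voom and 3 to 46 without 1 library. In EPCAM- cells (35) it was 74, 0 (953 unadjusted) and 18 with the block, the groups alone and limma-voom, and 6 to 65 without 1 library. The difference between fractions gave 0 to 5 without 1 library. Against the other knockouts (50) it was 148 with no correlation, 16 averaged, 143 with the block, 29 at a mean of at least 50, 44 with limma-voom (11 lower and 33 higher), 338 with the block and no correlation, 33 to 48 without 1 library, and 9 and 16 without Klf5KO 1 and 2 in both fractions. No fold change of a described gene that was called turned its direction. The joint leave-outs and the block without correlation were chosen after seeing the data. The edgeR and DESeq2 alternatives were not run because the values are not raw counts. The cause of these shifts was not tested, and depth limits genes near 3 reads, 7 to 9 scaled reads.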
